A study of Homo sapiens with 4 samples.

Results

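A set of 30 genes of the peroxisome was followed in MDA-MB-231 cells, a human triple-negative breast cancer line, with and without knockdown of hTrmt13. The genes were taken by symbol from a list of 13 peroxins, 2 peroxisomal membrane proteins and 15 matrix enzymes, and all 30 were found among the 28930 symbols of the count table. The list was chosen by symbol with earlier results of the same knockdown against control comparison known, so the fold changes of its genes are given as a description and support nothing by themselves. hTrmt13, encoded by TRMT13, is a tRNA methyltransferase, and the study asked what it does in transcription. The control group was 2 libraries of cells given a control siRNA and the knockdown group was 2 libraries of cells given an siRNA against hTrmt13. Sequences, doses and times of the siRNAs were not given in the sources used here. Both groups come from 1 established line. No label says that the replicates were separate cultures, so a p-value here reflects the spread of these libraries alone, and that spread may be technical.

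Peroxisomes are small organelles bounded by a membrane. They shorten very-long-chain and branched fatty acids by beta-oxidation, take a carbon off phytanic acid by alpha-oxidation, begin the synthesis of ether lipids, and break down the hydrogen peroxide that their oxidases make. Their enzymes are made in the cytosol and enter the matrix through peroxins, a group of proteins that carry, dock, translocate and recycle import receptors, insert membrane proteins, and drive growth and division of the organelle.

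Library depth lay between 9777267 and 13098985 total counts, and 1 CPM (the usual depth-scaled count, after TMM scaling) rested on about 9.58 to 13.4 counts. The targeted gene TRMT13 fell 4.05-fold (edgeR adjusted p = 0.0399), from control levels of 14.9 and 18.9 CPM to knockdown levels of 3.52 and 4.79 CPM, which matches the labels. Among markers of the line, VIM lay between 1769 and 1845 CPM in every library, while CDH1 had 1 count in each group and ESR1 had 0 in all libraries. The 5 mesenchymal markers summed to 3963 to 4140 CPM in control and 3671 to 3850 CPM in knockdown. The 6 luminal markers, mostly KRT8 and KRT18, summed to 1064 to 1176 CPM in control and 813.1 to 944.7 CPM in knockdown. Of 5 markers of hepatocytes, cells rich in peroxisomes, ALB, TTR and CYP3A4 had no count in any library, and the list summed to at most 0.095 CPM. The 4 blood markers summed to 0.209 to 0.541 CPM in control and 0.666 to 0.899 CPM in knockdown. Both the mesenchymal and the luminal sums were lower in the knockdown. The blood sum was higher but near the floor. It rested almost wholly on PTPRC, with 1 and 7 counts in control against 7 and 12 in knockdown. The mesenchymal genes did not move as one, since AXL (899.7 and 1097 CPM in control, 584.8 and 625.1 CPM in knockdown), CD44 and S100A4 were lower in both knockdown libraries and LGALS1 was higher in both. The part of these genes in the results below was not tested.

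Most genes of both classes had positive log2 fold changes after knockdown, 10 of 13 peroxins and 11 of 15 matrix enzymes, and no gene of either class passed the all-gene test. Of 29 genes tested, 0 changed at a Benjamini-Hochberg adjusted p under 0.05 in edgeR's quasi-likelihood test, against 2.99% of all 13022 genes tested. The smallest adjusted p in the set was 0.0717. An unadjusted p under 0.05 was reached by 9 genes, 7 higher and 2 lower, against 24% of all genes. DESeq2 called 1 gene of the set, AGPS, against 8.67% of all genes. With the replicate number as a block, an alternative because nothing states that equal numbers pair the libraries, edgeR called 14, against 40.1% of all genes. PXMP2 was too low to be tested. PEX11G passed the filter on low counts only through its knockdown libraries, so it could enter the counts of positive and higher genes only by being high there. In bulk RNA, fewer cells with a transcript and less of it per cell cannot be told apart.

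The peroxins had a median log2 fold change of 0.54 and the matrix enzymes one of 0.23, beside 0.01 for all genes tested. Positive values made up 50.4% of those of all genes. In 8 peroxins both knockdown libraries lay above both control libraries, against 27.5% of all genes, and in 2 both lay below, against 26.8%. Of 15 matrix enzymes, 5 lay wholly above and 2 wholly below the control libraries. Without PEX11G, which passed the filter only through its knockdown libraries, the peroxin median was 0.50. Of the 12 peroxins left, 9 had positive values, 7 lay wholly above and 2 wholly below the control libraries. The difference between the class medians was 0.31, with an SD between replicates of 0.155. It was 0.15 without knockdown replicate 1 and 0.18 without control replicate 1, and the enzyme median moved to 0.35 without knockdown replicate 1 and to 0.13 without knockdown replicate 2. Genes are not replicates, so this difference was not tested. Summed over the 13 peroxins, the level was 352.6 and 358.1 CPM in control cells, with 485.7 and 460.5 CPM after knockdown. Summed over the 15 enzymes it was 808.6 and 790.6 CPM in control against 865.9 and 910.7 CPM in knockdown. Both sums were higher in each knockdown library than in either control library. A sum weighs abundant genes most, and CAT alone had a mean of 150.6 CPM in control and 206.2 CPM in knockdown. AGPS, 1 of 4 enzymes with a negative log2 fold change, had means of 102.3 CPM in control and 46.6 CPM in knockdown. The median level over the genes of a class, in CPM per kb of exon, did not follow the sums for the enzymes. For the enzymes it was 11.3 and 14.5 in control and 6.77 and 9.69 in knockdown, lower in both knockdown libraries. The middle enzyme was a different gene in each library, AGPS and HACL1 in control and PECR and ACOX2 in knockdown. The lower median therefore does not show that most enzymes fell, and 11 of 15 had positive log2 fold changes. For the peroxins the median level was 5.78 and 7.22 in control and 8.16 and 10.7 in knockdown.

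**Figure D1:**
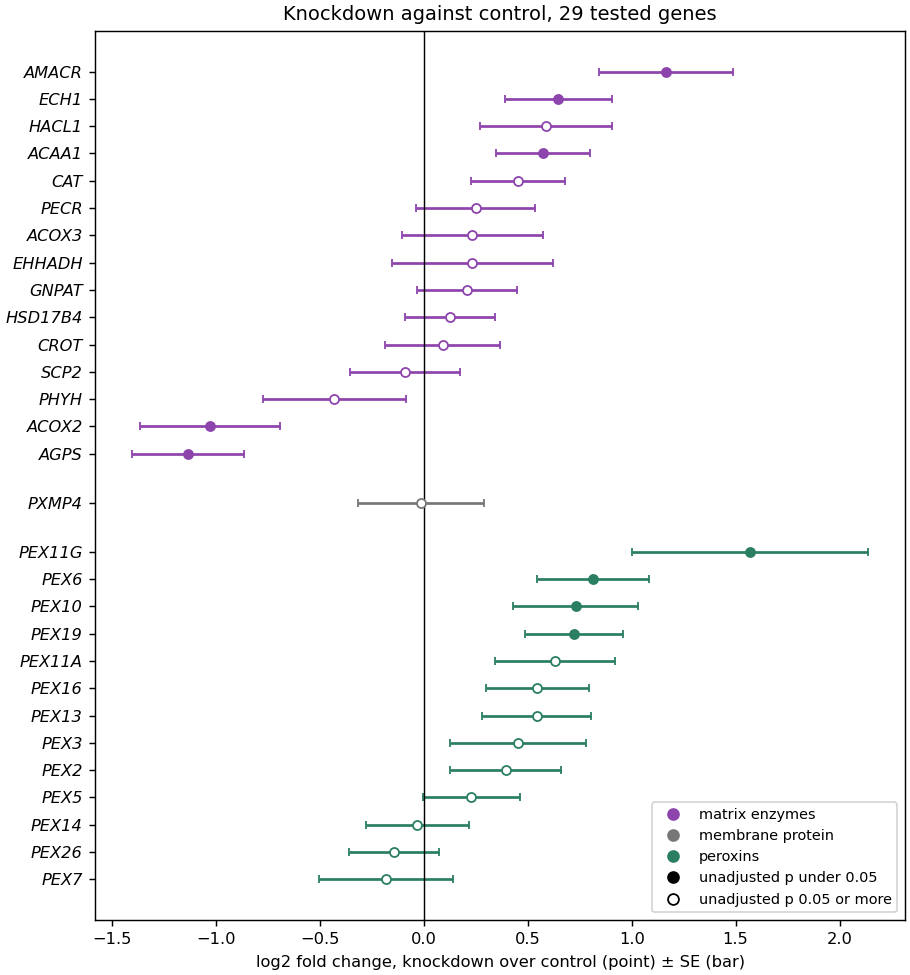
Log2 fold change of knockdown over control with its SE for the 29 tested genes, by class and in order of size. Filled points have an unadjusted p under 0.05 (9 genes). Peroxins run from −0.18 to 1.57 and matrix enzymes from −1.13 to 1.16.

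**Figure D2:**
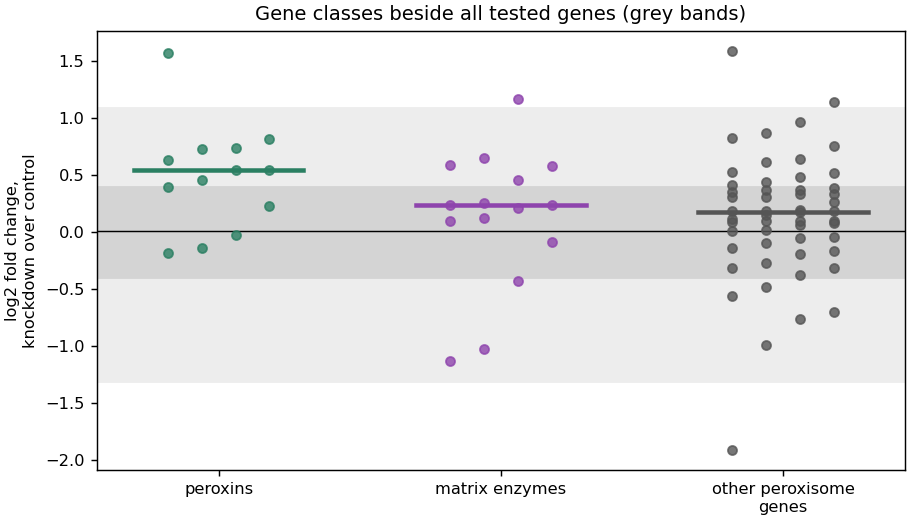
Log2 fold change of each tested gene (points) and the class median (thick line) for 13 peroxins, 15 matrix enzymes and 53 other peroxisome genes. Grey bands span the 25th to 75th and the 5th to 95th percentiles of all 13022 genes tested, from −0.40 to 0.39 and from −1.32 to 1.09, and the thin line is their median. The peroxin median lies above the inner band.

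Levels are compared between genes per kilobase of exon, with exon lengths from GENCODE 29. In the control libraries CAT, the catalase that destroys hydrogen peroxide, was the most abundant of the set at 65.4 CPM per kb. It was followed by ECH1 at 40.6, HSD17B4 at 36.2 and ACAA1 at 34.6 CPM per kb. By this measure the highest peroxins were PEX6 at 12.9, PEX5 at 12.3, PEX14 at 11.8 and PEX19 at 11.4 CPM per kb. These 4 peroxins lay so close that their order changed between libraries. The order also depends on the exon lengths used. PEX26 had the highest control mean of the peroxins in CPM, 63.7, but 3.41 CPM per kb, since its exon length was taken as 18.7 kb. AMACR, EHHADH, ACOX3 and PXMP4 lay between 1.74 and 2.78 CPM per kb. PEX11G at 0.43 and PXMP2 at 0.69 CPM per kb were the lowest.

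**Figure D3:**
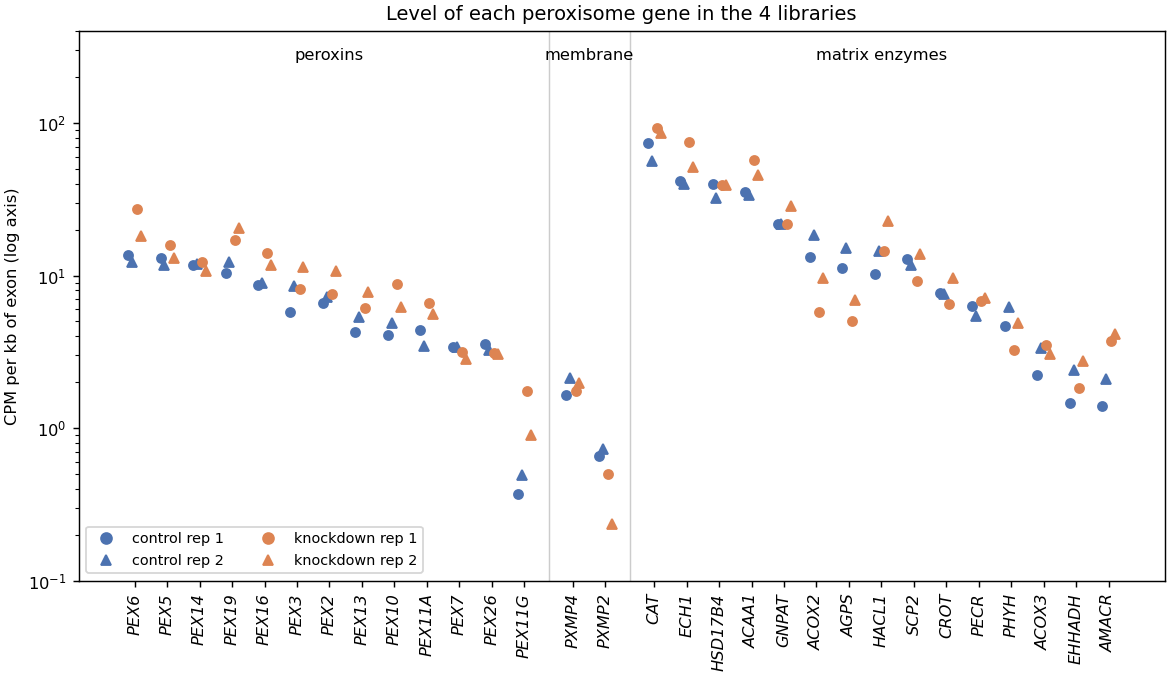
Level of each gene in CPM per kb of exon (log axis) in the 4 libraries, with control in blue, knockdown in orange, circles for replicate 1 and triangles for replicate 2. Genes are ordered by their control mean within peroxins, membrane proteins and matrix enzymes. Control means run from 0.43 for PEX11G to 12.9 for PEX6 among peroxins and from 1.74 for AMACR to 65.4 for CAT among matrix enzymes.

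Import begins with the receptors. PEX5, which carries proteins with the C-terminal targeting signal, had 57.4 and 51.5 CPM in control against 70.4 and 57.3 CPM after knockdown. PEX7, which carries proteins with the N-terminal signal, had 6.26 and 6.27 CPM in control cells, with 5.80 and 5.24 CPM after knockdown. The groups overlapped for PEX5 (log2 fold change 0.23), and the small PEX7 difference (−0.18) was within its SE of 0.32. In the docking complex, PEX14 stood at 23.2 and 23.6 CPM in control against 24.5 and 21.3 CPM in knockdown, with overlapping groups and a log2 fold change of −0.03. Its partner PEX13 had 25.1 and 31.3 CPM in control against 36.1 and 46.0 CPM after knockdown. The PEX13 groups did not overlap, and its log2 fold change was 0.54 (SE 0.26).

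After delivering its cargo PEX5 is ubiquitinated by a RING ligase complex that includes PEX2 and PEX10. PEX10 stood at 11.9 and 14.3 CPM in control cells, with 25.5 and 18.1 CPM after knockdown, 1.66-fold higher (log2 fold change 0.73, SE 0.30, edgeR adjusted p = 0.202). Both knockdown libraries lay above both control libraries, and the knockdown libraries differed from each other more than the controls did. Without knockdown replicate 1 the log2 fold change of PEX10 was 0.47. In GENCODE 29, 50.9% of the PEX10 exon length overlaps RER1 on the opposite strand, and without a known strand setting reads there cannot be assigned with certainty. RER1 itself had overlapping groups, at 78.4 and 68.8 CPM in control against 70.0 and 61.8 CPM in knockdown. PEX2 had 29.4 and 31.9 CPM in control against 33.5 and 47.2 CPM after knockdown. Its log2 fold change of 0.39 (SE 0.27) came with knockdown libraries far apart, the lower of them next to the controls.

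Ubiquitinated PEX5 is pulled back out by a complex that includes the AAA ATPase PEX6 and is held at the membrane by PEX26. Values within this complex were uneven. PEX6 had 47.9 and 42.7 CPM in control cells, with 95.4 and 64.0 CPM after knockdown, 1.76-fold higher (log2 fold change 0.81, SE 0.27, edgeR adjusted p = 0.138). Both knockdown libraries were above the controls, with replicate 1 the higher, and the log2 fold change was 0.50 without that library. PEX26 had 66.2 and 61.2 CPM in control against 58.3 and 56.8 CPM in knockdown, lower in both libraries by less than its SE (−0.15, SE 0.22). The ratio of PEX6 to PEX26 within a library, looked at after the values were seen, was 0.724 and 0.698 in control and 1.64 and 1.13 in knockdown. In control cells PEX6 had the highest mean level per kb of exon among the peroxins, though not the highest CPM. For this and its unadjusted p under 0.05, the stretch upstream of PEX6 is shown. It is the part of the RefSeq promoter window that lies before the first GENCODE 29 exon, 211 bases on the minus strand of chr6:42979221-42979431 (GRCh38.p14), with the letters CGGAAG, a core of ETS factor sites, in capitals. A further CGGAAG of the same window lies inside the first GENCODE exon and is not shown.
PEX6: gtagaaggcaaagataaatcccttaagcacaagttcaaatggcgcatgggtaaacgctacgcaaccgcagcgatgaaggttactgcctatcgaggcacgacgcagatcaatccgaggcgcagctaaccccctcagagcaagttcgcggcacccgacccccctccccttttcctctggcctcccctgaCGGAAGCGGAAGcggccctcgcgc

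Membrane proteins are inserted by PEX19, a soluble chaperone and receptor, with PEX3 as its membrane dock and PEX16 recruiting PEX3. All 3 had positive values. PEX19 had 38.3 and 44.9 CPM in control cells, with 62.6 and 74.7 CPM after knockdown, 1.65-fold higher (log2 fold change 0.72, SE 0.24, edgeR adjusted p = 0.135), with clearly separate groups. AL139011.2, on the same strand and without a row in the count table, overlaps 18.8% of the PEX19 exon length. PEX16 had 22.0 and 22.7 CPM in control against 35.7 and 29.6 CPM in knockdown (0.54, SE 0.25), again without overlap. PEX3 had 11.4 and 16.7 CPM in control against 16.1 and 22.4 CPM after knockdown. Control replicate 2 of PEX3 was above knockdown replicate 1, so these groups overlapped (0.45, SE 0.33). None of the 3 passed the test.

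The PEX11 proteins elongate and divide the organelle. PEX11A had 13.0 and 10.3 CPM in control cells, with 19.5 and 16.6 CPM after knockdown, 1.55-fold higher (log2 fold change 0.63, SE 0.29), with no overlap. PEX11G had 5 and 9 counts in control against 26 and 17 after knockdown, a depth-scaled ratio of 2.90 (95% exact binomial interval 1.55 to 5.73, counting error only). The fitted log2 fold change, 1.57 (SE 0.57, edgeR adjusted p = 0.16), rests on these few counts and was 1.04 without knockdown replicate 1. As PEX11G passed the filter on low counts only through its knockdown libraries, neither the interval nor the fitted value is support for a change. Of the membrane proteins, PXMP4 had 9.50 and 12.1 CPM in control against 10.1 and 11.4 CPM in knockdown, with a log2 fold change of −0.01. PXMP2 had 6 and 9 counts in control against 5 and 3 after knockdown, a ratio of 0.503 (95% interval 0.185 to 1.26), so no difference could be detected at this depth. Another transcript, AC135586.2, overlaps 42.8% of its exon length.

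The matrix enzymes held the lowest log2 fold changes in the set. AGPS makes the ether bond by exchanging the acyl chain of acyl-dihydroxyacetone phosphate for an alkyl chain. It stood at 87.7 and 116.9 CPM in control against 39.4 and 53.9 CPM after knockdown, 2.19-fold lower (log2 fold change −1.13, SE 0.27, edgeR adjusted p = 0.0717). Every knockdown library was well below every control library. This was the smallest adjusted p of the set, and it passed the threshold in DESeq2 (adjusted p = 0.00923), without control replicate 1 (edgeR 0.0351), without knockdown replicate 2 (edgeR 0.0404) and with no filter on low counts (edgeR 0.00216). Over all alternatives without the replicate block it ran from 0.00216 to 0.208. GNPAT, which supplies the acyl substrate of AGPS, had 57.9 and 57.7 CPM in control cells, with 57.2 and 76.1 CPM after knockdown, with overlapping groups (0.21, SE 0.24). The AGPS to GNPAT ratio within a library, taken after the values were seen, was 1.51 and 2.03 in control and 0.688 and 0.708 in knockdown. FAR1, which makes the fatty alcohol that AGPS uses, is outside the set and was also picked after its values were seen. It had 93.8 and 132.7 CPM in control against 47.2 and 85.9 CPM in knockdown (−0.77, SE 0.34, edgeR adjusted p = 0.228).

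Among the enzymes other than AGPS, the lowest and highest log2 fold changes were those of ACOX2 and AMACR, which both act on branched chains. This was not shared by the whole branched-chain route, since ACOX3, the pristanoyl-CoA oxidase, had overlapping groups (0.23, SE 0.34). ACOX2, the oxidase of branched acyl-CoA and bile acid intermediates, had 31.9 and 44.9 CPM in control against 14.1 and 23.5 CPM after knockdown. It was 2.04-fold lower with no overlap (log2 fold change −1.03, SE 0.34, edgeR adjusted p = 0.134). AMACR, the racemase that readies branched acyl-CoA for that oxidase, had 6.47 and 9.75 CPM in control cells, with 17.3 and 19.2 CPM after knockdown. It was 2.24-fold higher with no overlap (1.16, SE 0.32, edgeR adjusted p = 0.0969). ACOX2 and AMACR therefore stood on opposite sides of their controls in all libraries. With no filter on low counts, which called 1949 of 18632 genes, both passed the threshold (edgeR adjusted p = 0.0187 and 0.0171). Neither passed in DESeq2 (adjusted p = 0.0666 and 0.0549). With a library left out the log2 fold change ran from −1.45 to −0.70 for ACOX2 and from 0.91 to 1.49 for AMACR. In GENCODE 29, 57% of the AMACR exon length is shared with the readthrough gene C1QTNF3-AMACR, which has no row of its own in the count table. The stretch upstream of AMACR is shown because AMACR had the highest log2 fold change among the enzymes. It is likewise the part of the window before the first GENCODE exon, 192 bases on the minus strand of chr5:34008109-34008300 (GRCh38.p14), and holds neither CGGAAG nor AGGTCA on either strand.
AMACR: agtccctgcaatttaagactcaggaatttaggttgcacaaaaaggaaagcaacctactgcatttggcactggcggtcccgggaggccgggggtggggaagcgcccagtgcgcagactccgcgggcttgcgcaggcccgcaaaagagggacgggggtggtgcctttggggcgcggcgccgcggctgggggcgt

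The other enzymes of beta-oxidation had overlapping or higher values. ACAA1, a thiolase, had 65.9 and 63.1 CPM in control against 106.8 and 85.1 CPM in knockdown, 1.49-fold higher (log2 fold change 0.57, SE 0.23, edgeR adjusted p = 0.189). ECH1, a dienoyl-CoA isomerase found in peroxisomes and mitochondria, had 58.6 and 56.0 CPM in control against 106.4 and 73.0 CPM after knockdown, 1.56-fold higher (0.65, SE 0.26, edgeR adjusted p = 0.192). In both genes the control libraries nearly coincided and both knockdown libraries lay above them. Without knockdown replicate 1 the log2 fold change of ECH1 was 0.36. Other genes overlap 22.2% of the exon length of ACAA1 and 28.5% of that of ECH1. The bifunctional enzymes that hydrate and dehydrogenate the chain showed overlapping groups. HSD17B4 had 155.2 and 124.9 CPM in control cells, with 152.8 and 152.3 CPM after knockdown (0.12, SE 0.22), and EHHADH 6.47 and 10.8 CPM in control against 8.08 and 12.2 CPM in knockdown (0.23, SE 0.39). ACOX3, the pristanoyl-CoA oxidase, had 6.68 and 10.1 CPM in control against 10.6 and 9.21 CPM after knockdown (0.23, SE 0.34). SCP2, a lipid carrier with a thiolase form, had 82.5 and 75.8 CPM in control cells, with 59.3 and 89.1 CPM after knockdown, so its knockdown libraries lay on both sides of the controls. CROT, which passes shortened chains to carnitine, did the same, at 32.3 and 32.1 CPM in control against 27.6 and 40.9 CPM in knockdown. PECR, an enoyl-CoA reductase, had 11.7 and 10.1 CPM in control against 12.6 and 13.3 CPM after knockdown (0.25, SE 0.29), a difference below its SE.

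In alpha-oxidation, PHYH hydroxylates phytanoyl-CoA and HACL1 cleaves the product. PHYH had 11.1 and 14.8 CPM in control cells, with 7.61 and 11.5 CPM after knockdown (log2 fold change −0.43, SE 0.34). HACL1 had 23.5 and 33.3 CPM in control against 33.2 and 52.1 CPM in knockdown (0.59, SE 0.32). Their values had opposite signs and both overlapped, HACL1 by a margin under 0.1 CPM. BTD, on the opposite strand, overlaps 20.6% of the HACL1 exon length. CAT had 170.8 and 130.5 CPM in control against 213.0 and 199.5 CPM after knockdown, 1.37-fold higher without overlap (0.45, SE 0.23, edgeR adjusted p = 0.276).

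**Figure D4:**
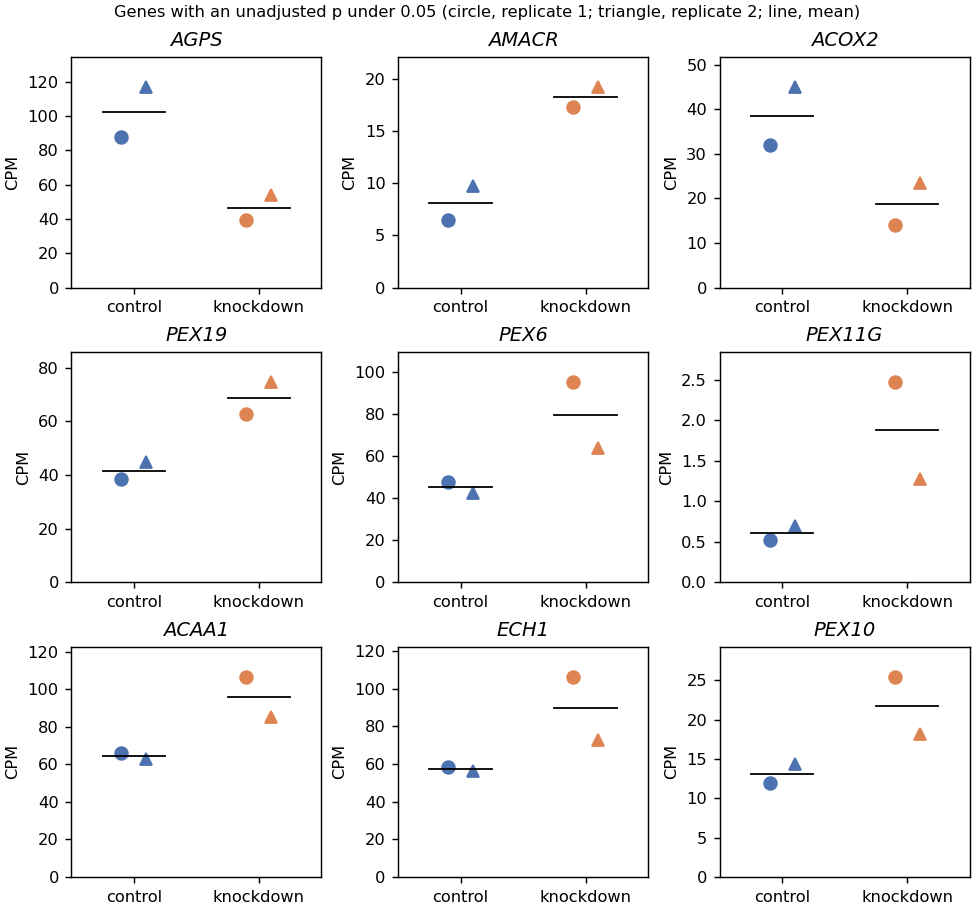
CPM in each library for the 9 genes with an unadjusted p under 0.05, in order of p, with linear axes from 0. Circles are replicate 1, triangles replicate 2 and lines the mean of 2 libraries. In all 9 the control and knockdown libraries do not overlap, which is largely set by choosing genes by p. Of all genes tested, 27.5% lay wholly above and 26.8% wholly below the controls. In PEX6, PEX11G, ACAA1, ECH1 and PEX10 knockdown replicate 1 is the higher of its group.

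The wider pathway was read from a list of 67 further peroxisome genes, of which 53 were tested. None passed the threshold in edgeR, against 2.99% of all genes. An unadjusted p under 0.05 was reached by 6 higher and 4 lower, against 24% of all genes. DESeq2 called 3, against 8.67% of all genes, and edgeR with the replicate block called 19, against 40.1%, so each of these shares was below that of all genes. Over this list the median was 0.17 on the log2 scale, with 37 positive and 16 negative values. In 16 genes both knockdown libraries lay above the controls, a share close to the 27.5% of all genes, and in 6 both lay below, against 26.8% of all genes. HSDL2, a short-chain dehydrogenase-like protein, had 33.1 and 38.1 CPM in control cells, with 72.9 and 84.1 CPM after knockdown, 2.20-fold higher (log2 fold change 1.14, SE 0.23, edgeR adjusted p = 0.0569). ACAD11, an acyl-CoA dehydrogenase, had 29.1 and 23.8 CPM in control against 53.2 and 50.3 CPM in knockdown (0.97, SE 0.24, edgeR adjusted p = 0.0786), although other genes overlap 91.4% of its exon length. IDH1, the NADP-dependent isocitrate dehydrogenase of cytosol and peroxisomes, had 188.4 and 214.3 CPM in control against 84.2 and 117.4 CPM after knockdown. It was 2.00-fold lower (−0.997, SE 0.24, edgeR adjusted p = 0.0748). DESeq2 called these 3 genes, with adjusted p = 0.00566 for HSDL2, 0.0371 for ACAD11 and 0.0164 for IDH1. With no filter on low counts edgeR called these 3 as well (adjusted p = 0.00286, 0.0218 and 0.00478). In edgeR HSDL2 also passed without knockdown replicate 1 (adjusted p = 0.00625) and IDH1 without knockdown replicate 2 (0.0441).

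Among fatty acid transporters and activators, ABCD2, a very-long-chain acyl-CoA transporter, had 21 counts over the control libraries and 66 over the knockdown ones, which scales to a ratio of 2.96 (95% exact binomial interval 1.79 to 5.10). SLC27A2, which activates very-long-chain fatty acids, had 35 and 10 counts in the same order, a ratio of 0.269 (95% interval 0.119 to 0.556). Both intervals cover counting error only. ABCD2 passed the filter on low counts only through its knockdown libraries and SLC27A2 only through its control libraries. Neither passed edgeR's test (adjusted p = 0.115 and 0.117), although ABCD2 did with no filter on low counts (0.0385). ABCD3, a transporter of branched acyl-CoA, had 94.3 and 151.6 CPM in control cells, with 69.1 and 120.3 CPM after knockdown, with overlapping groups. Its log2 fold change was −0.38 (SE 0.35, edgeR adjusted p = 0.555), and 0.01 without control replicate 2.

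Of the nuclear receptors that act on peroxisomal genes, PPARA had 56.1 and 48.7 CPM in control against 93.4 and 83.3 CPM after knockdown (log2 fold change 0.75, SE 0.22, edgeR adjusted p = 0.113). Its dimer partner RXRA had 72.2 and 59.2 CPM in control cells, with 46.2 and 34.4 CPM after knockdown (−0.71, SE 0.26, edgeR adjusted p = 0.168). The receptor and its partner thus had opposite signs, each without overlap between groups. PPARD, RXRB and the coactivators PPARGC1A and PPARGC1B had overlapping groups, with values from −0.20 to 0.09. VAPB, which tethers peroxisomes to the endoplasmic reticulum, had 106.8 and 111.9 CPM in control against 71.98 and 75.8 CPM in knockdown (−0.56, SE 0.21, edgeR adjusted p = 0.165). PMVK, a mevalonate pathway kinase, had 14.4 and 13.2 CPM in control against 30.05 and 18.95 CPM after knockdown (0.82, SE 0.32, edgeR adjusted p = 0.177), and a log2 fold change of 0.46 without knockdown replicate 1. TMEM135 had 33.9 and 43.9 CPM in control cells, with 51.4 and 90.4 CPM after knockdown (0.87, SE 0.33, edgeR adjusted p = 0.175). In these 3 genes the groups did not overlap, and the knockdown libraries of PMVK and TMEM135 lay far apart. TMEM135 passed with no filter on low counts (edgeR adjusted p = 0.0366) and without knockdown replicate 1 (log2 fold change 1.22, edgeR adjusted p = 0.00734), and its value was 0.40 without knockdown replicate 2.

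The windows around the starts were compared by letters alone. RefSeq windows of 300 bases, from 250 before to 50 after a start, were matched for 24 of the 30 genes, with 32 windows in all since some genes have several starts. CGGAAG, on either strand, was in 9 of 17 peroxin windows (52.9%) and 1 of 13 enzyme windows (7.69%), against 19.5% of 35116 windows of all genes. By gene it was in 7 of 11 peroxins and 1 of 11 enzymes. AGGTCA, on either strand, was in 0 of 17 peroxin windows and 1 of 13 enzyme windows, against 13.8% of all windows. That match, in AGPS, lies inside the first GENCODE exon of the gene. GGGCGG, the GC box, was in 12 of 17 peroxin windows and 9 of 13 enzyme windows, against 45% of all windows. CCAAT was in 5 of 17 and 5 of 13, against 34.6%. Median GC content was 62.7% over the 11 peroxins and 66.3% over the 11 enzymes, against 58.7% over all windows. Windows of 1 gene can overlap, and these matches are letters in a window, not measured sites, and no test was made of them.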

How the data were processed

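The authors deposited raw read counts, 1 value per gene symbol, for 4 RNA-seq libraries made from total RNA with a TruSeq kit, per the labels' protocols. STAR 2.5.2b, HTSeq 0.6.1, cutadapt and limma are named, with hg19 and GRCh37, per the submitters' processing notes. Strand setting and annotation: not given in the sources used here. Of 28930 symbols, 13022 passed filterByExpr (minimum count 10, minimum total 15). The test was edgeR 4.0.16 in R 4.3.3 (quasi-likelihood, TMM, no covariate, Benjamini-Hochberg over all genes tested), with the code tested on simulated data. DESeq2 1.42.0 was an alternative. SE is that of the log2 fold change. Replicates of a group were not 1 library deposited again (chi-square over its degrees of freedom 40.4 in control, 44.3 in knockdown) and were counted separately. Exon lengths and overlaps come from GENCODE 29 on GRCh38, which may differ from the authors' annotation. The members and lists were chosen with earlier results of these data known. Full statistics are given for members with an unadjusted p under 0.05, and for the 10 other peroxisome genes with one. For ABCD2 and SLC27A2 a ratio of counts stands in place of the log2 fold change. ABCD3, FAR1 and CAT are given in full as well, although their unadjusted p was not under 0.05. Some genes of the wider list are not reported here and were left out of its counts. Alternatives were 3 other scalings, 2 other filters, DESeq2, a replicate block and leaving out each library.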

Additional observations from a re-analysis of the deposited data

How the results depend on the processing

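With 2 libraries per group, leaving out a library leaves a lone sample that is assumed to vary like the other group. Genes called over the whole table were 389 with the main settings, 1129 in DESeq2 and 1949 with no filter on low counts, and 678 to 935 with a library left out. Members called were 0, then 1 in DESeq2, 3 with no filter and 0 to 1 with a library left out, and other peroxisome genes called were 0, then 3, 5 and 0 to 2. With no filter, 3 of 30 members stood beside 1949 of 18632 genes, so the share of members called was not above that of all genes. With a library left out, 29 members and 13271 to 13500 genes were tested. In those fits the peroxin median ran from 0.37 to 0.57, the enzyme median from 0.13 to 0.35 and their difference from 0.15 to 0.36. Under the other alternatives these 3 values moved by less than the spread between replicates. ABCD3 changed sign with a library left out, with log2 fold changes from −0.83 to 0.0085. The cause was not tested.

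Equal replicate numbers are not stated to mark a shared culture or batch. Replicate differences in control and knockdown had r = 0.66 over 13022 genes, and genes are not independent. With the replicate number as a block, edgeR called 5227 genes (40.1%), 14 members (12 higher, 2 lower) and 19 other peroxisome genes. The members were PEX6, PEX10, PEX11A, PEX11G, PEX13, PEX16, PEX19, ACAA1, AMACR, CAT, ECH1 and HACL1, higher, and AGPS and ACOX2, lower.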
